A study of Mus musculus with 12 samples.

Results

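The genes described here are the members of the circadian clock named Per1, Per2, Per3, Dbp, Tef, Nr1d1, Nr1d2, Arntl, Cry1 and Cry2, measured in mouse islets of Langerhans. Every probe whose symbol in the intensity table, or whose updated symbol in the authors' deposited comparison table, was one of these 10 names was taken, which gave 18 of the 45281 probes. Of these 18 probes, 13 probes of 8 genes reached a detection p under 0.05 on 6 or more arrays of the 12 and were kept for testing, among 18315 kept probes in all. Per3 was detected on 5 of 12 arrays and Cry1 on 0 of 12, so neither gene was tested. The other probes left out were 2 probes of Nr1d2, detected on 5 and 3 arrays, and 1 probe of Tef, detected on 1 array.

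RNA came from islets of 12 male C57BL/6 mice aged 8 weeks, 6 SRI-tg10 mice and 6 littermate controls, with 1 array a mouse. The SRI-tg10 genome held 10 transgene copies for sorcin (SRI, a calcium-binding protein), which was expressed with luciferase from a tetracycline-inducible promoter whose transactivator was driven by the rat insulin promoter, and both groups had received food of 60% fat and drinking water with doxycycline (500 mg/L) from 4 weeks of age. The study asked how extra sorcin changes the beta cell transcriptome. The titles carry a letter, A or B, of unstated meaning, which splits each group into 3 and 3 mice, and the labels do not give the time of day at which islets were collected.

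In the circadian clock, ARNTL (also called BMAL1) pairs with CLOCK and binds E-boxes in the promoters of the Per, Cry and Nr1d genes, whose products then shut their own transcription down. PER and CRY proteins act back on ARNTL and CLOCK directly, while the nuclear receptors NR1D1 and NR1D2 (REV-ERB alpha and beta) repress Arntl through ROR elements, and the PAR bZIP factors DBP and TEF carry the rhythm to D-box genes. Levels of these messages rise and fall over the day in most tissues, islets included, and Per1 is also known to respond within a short time to glucocorticoids, cAMP and serum.

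The promoters below belong to genes with relations between mice described further on, and for Per1 and Arntl the start that held a match is printed. Each runs from 250 bases before to 50 after the start site in RefSeq (GRCm38.p6), 5′ to 3′ on the gene's strand, and capitals mark every match to CACGTG (E-box), CACGTT (E-box-like element), TTATGNAA (D-box), AGGTCA (ROR element core) or TGACGTCA (cAMP response element), searched on both strands.
Per1 (chr11:69098699-69098998, plus strand): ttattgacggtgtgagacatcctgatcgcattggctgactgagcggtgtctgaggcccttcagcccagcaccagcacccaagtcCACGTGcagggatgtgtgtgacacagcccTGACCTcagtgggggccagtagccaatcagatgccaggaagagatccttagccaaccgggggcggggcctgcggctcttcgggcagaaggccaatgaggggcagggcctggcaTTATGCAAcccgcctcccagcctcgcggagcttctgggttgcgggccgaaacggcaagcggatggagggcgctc
Ciart (chr3:95882179-95882478, minus strand): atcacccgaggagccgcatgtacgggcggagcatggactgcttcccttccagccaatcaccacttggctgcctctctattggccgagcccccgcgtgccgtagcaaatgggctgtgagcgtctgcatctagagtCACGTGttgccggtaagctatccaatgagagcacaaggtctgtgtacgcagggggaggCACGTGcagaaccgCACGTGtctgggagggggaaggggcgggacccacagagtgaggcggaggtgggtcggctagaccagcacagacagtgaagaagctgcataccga
Cry2 (chr2:92434020-92434319, minus strand): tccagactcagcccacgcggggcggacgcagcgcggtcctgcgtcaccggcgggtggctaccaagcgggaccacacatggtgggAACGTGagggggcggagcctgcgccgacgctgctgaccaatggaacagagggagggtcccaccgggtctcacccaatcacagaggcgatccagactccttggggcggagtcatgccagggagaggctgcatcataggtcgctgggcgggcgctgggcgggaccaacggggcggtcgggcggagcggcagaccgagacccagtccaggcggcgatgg
Nr1d1 (chr11:98775328-98775627, minus strand): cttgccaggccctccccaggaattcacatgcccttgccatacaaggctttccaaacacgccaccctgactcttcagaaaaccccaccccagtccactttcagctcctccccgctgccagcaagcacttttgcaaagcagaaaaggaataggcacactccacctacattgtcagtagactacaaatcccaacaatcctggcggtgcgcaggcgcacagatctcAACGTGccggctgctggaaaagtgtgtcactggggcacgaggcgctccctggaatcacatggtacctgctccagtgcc
Nr1d2 (chr14:18239057-18239356, minus strand): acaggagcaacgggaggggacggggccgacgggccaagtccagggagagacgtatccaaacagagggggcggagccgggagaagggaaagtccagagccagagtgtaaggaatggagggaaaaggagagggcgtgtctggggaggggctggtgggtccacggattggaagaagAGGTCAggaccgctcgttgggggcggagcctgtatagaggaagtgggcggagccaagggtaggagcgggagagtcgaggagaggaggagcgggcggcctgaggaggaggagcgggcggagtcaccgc
Arntl (chr7:113207261-113207560, plus strand): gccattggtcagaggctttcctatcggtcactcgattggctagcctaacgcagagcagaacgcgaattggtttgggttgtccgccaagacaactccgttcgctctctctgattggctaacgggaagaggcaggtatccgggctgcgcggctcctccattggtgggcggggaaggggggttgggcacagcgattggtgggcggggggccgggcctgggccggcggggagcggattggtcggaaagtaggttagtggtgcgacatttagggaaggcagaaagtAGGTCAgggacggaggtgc

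The Per1 window, at the first of 2 listed starts, held an E-box, a D-box and a ROR element core on the opposite strand. The window of Ciart, which encodes a repressor of ARNTL and CLOCK and is no member of the 10 genes, held 3 E-boxes. An E-box was found in 7.15% of all 32851 promoters in the table, and 3 or more in 0.0883%. Cry2 and Nr1d1 each held 1 E-box-like element on the opposite strand, which 4.68% of promoters hold. Nr1d2 and the second of the 2 Arntl starts each held 1 ROR element core, found in 16.3% of promoters. Among the promoters not printed, both Tef starts held an E-box, Cry1 held an E-box and an E-box-like element, and Per3 held 2 D-boxes (D-boxes are in 3.38% of promoters). Dbp, the second Per1 start and the first Arntl start held no match in this window. RefSeq entries were found for 9 of the 10 genes. A match is a description of the letters and not of binding.

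All 6 SRI-tg10 arrays showed the transgene: the Sri probe lay between 12.72 and 14.96 in SRI-tg10 mice, against 9.60 to 10.09 in controls, on the log2 scale used throughout. The lowest of the SRI-tg10 values, 12.72, was that of replicate 4. The arrays detected between 16271 and 20094 probes, and control replicate 5 stood apart with the fewest, 16271, and with the lowest mean r to all other arrays, 0.934. The labels name the material both islets and beta cells. Glucagon (Gcg), somatostatin (Sst) and pancreatic polypeptide (Ppy) were detected on all 12 arrays beside the insulin genes, and so were the acinar enzymes Cpa1 and Prss2 and the globin Hbb-b1. In such a mixture, fewer cells of a type and less RNA per cell cannot be told apart.

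No clock gene differed between SRI-tg10 and control islets past the threshold. Of the 13 kept probes, 0 passed an adjusted p under 0.05 in limma (Benjamini-Hochberg over 18315 probes), against 0.0218% of all kept probes, and 0 had an unadjusted p under 0.05, against 4.26% of all. Their 2 groups overlapped on all 13 probes, and 0.169% of all kept probes had groups that did not. By the brightest probe of each gene, 6 of 8 genes were higher on average in SRI-tg10 islets, against 50.9% of all 12647 genes. The median difference was 0.18, against 0.0049 over all genes. Without control replicate 5, Per1 (-0.16) and Per2 (-0.10) were lower in SRI-tg10 islets. The plot of levels by mouse shows both groups for each gene.

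**Figure D1:**
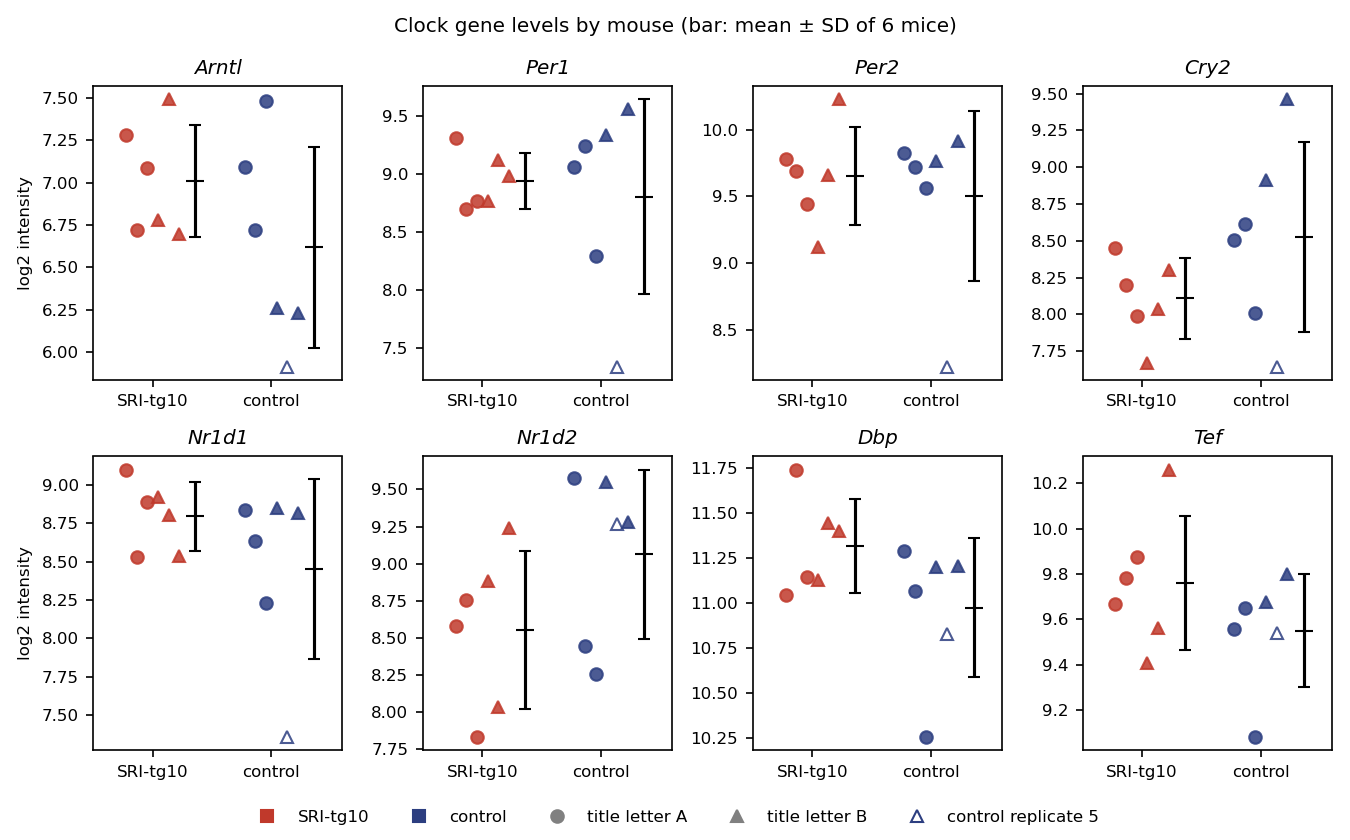
Level of the 8 measured clock genes (log2 intensity, 1 panel a gene by its brightest probe, each with its own axis) in 6 SRI-tg10 mice (red, left) and 6 control mice (blue, right); circles and triangles are title letters A and B, the open triangle is control replicate 5, and bars give mean ± SD. Both groups overlap in every panel, and control replicate 5 is the lowest mouse for Arntl, Per1, Per2, Cry2 and Nr1d1.

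Arntl, the activator, lay at 6.69, 6.93 and 7.49 (lowest, median and highest) in SRI-tg10 islets, against 5.92, 6.49 and 7.48 in control islets. The SRI-tg10 mice covered the upper part of the control range and all 6 lay above the control mean. That mean was held down by control replicate 5 at 5.92. The difference was 0.39 ± 0.25 (SE; n = 6 each; limma adjusted p = 0.922), and 0.25 without control replicate 5.

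The period genes encode the core repressors. Per1 (brighter probe) lay at 8.70, 8.88 and 9.31 in SRI-tg10 islets and at 7.34, 9.15 and 9.56 in control islets. The SRI-tg10 mice sat inside a much wider control range, with an SD of 0.24 in SRI-tg10 mice against 0.84 in controls, and 3 of them lay above the control mean. The difference was 0.14 ± 0.32 (SE; limma adjusted p = 0.96), and without control replicate 5, whose 7.34 was the lowest value, its sign turned, to -0.16. The second Per1 probe followed the first across the 12 mice with r = 0.99 (rho 0.96; permutation p = 1e-05, the smallest that 100000 resamples can give, and adjusted p = 3e-05 over the 6 pairs of probes of one gene), and r was 0.95 without the 2 mice farthest from the median.

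Per2 lay at 9.12, 9.68 and 10.23 in SRI-tg10 islets and at 8.23, 9.74 and 9.91 in control islets. The other controls lay between 9.56 and 9.91, so that control replicate 5, at 8.23, made up most of the control range. The difference was 0.15 ± 0.27 (SE; limma adjusted p = 0.951), and -0.10 without control replicate 5. The next Per2 probe tracked this one (r = 0.96, rho 0.87, permutation p = 1e-05, adjusted p = 3e-05; r 0.88 without the 2 farthest mice), whereas the dimmest, detected on 6 arrays, did so less (r = 0.33, rho 0.34, permutation p = 0.302; r -0.16 without the 2 farthest mice). Per3 was not well above background in either group: 2 SRI-tg10 and 3 control arrays detected it.

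Of the cryptochromes, which bind ARNTL and CLOCK as repressors, only Cry2 was measured. Cry2 lay at 7.67, 8.12 and 8.45 in SRI-tg10 islets, against 7.64, 8.56 and 9.46 in control islets. All 6 SRI-tg10 mice lay below the control mean, and control replicate 5, at 7.64, lay below every SRI-tg10 mouse. The difference was -0.42 ± 0.26 (SE; limma adjusted p = 0.922), and -0.59 without control replicate 5. The dimmer Cry2 probe gave -0.14 ± 0.21, and the 2 probes were related only loosely across mice (r = 0.59, rho 0.43, permutation p = 0.0408, adjusted p = 0.0612; r 0.30 without the 2 farthest mice).

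The REV-ERB genes went in opposite directions on average. Nr1d1 lay at 8.53, 8.85 and 9.10 in SRI-tg10 islets, against 7.36, 8.72 and 8.85 in control islets, with all 6 SRI-tg10 mice above the control mean. That mean was held down by control replicate 5 at 7.36: the difference of 0.34 ± 0.24 (SE; limma adjusted p = 0.922) became 0.12 without it. Nr1d2 lay at 7.83, 8.67 and 9.24 in SRI-tg10 islets, against 8.26, 9.27 and 9.58 in control islets. Here 5 of 6 SRI-tg10 mice lay below the control mean, for a difference of -0.51 ± 0.29 (SE; limma adjusted p = 0.922), the largest of the 8, and control replicate 5, at 9.27, was unremarkable.

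By the brightest probe, the PAR bZIP genes varied least over all 12 mice, with an SD of 0.36 for Dbp and 0.28 for Tef. Without control replicate 5, Nr1d1 (SD 0.24) and Per2 (0.28) varied less than Tef (0.29) and Dbp (0.37). Dbp, a direct target of ARNTL and CLOCK, lay at 11.04, 11.27 and 11.74 in SRI-tg10 islets, against 10.25, 11.13 and 11.29 in control islets, and all 6 SRI-tg10 mice lay above the control mean. The difference was 0.34 ± 0.18 (SE; 95% interval -0.05 to 0.74; limma adjusted p = 0.922), and between 0.20 and 0.41 with any 1 array left out. Tef lay at 9.41, 9.73 and 10.26 in SRI-tg10 islets, against 9.08, 9.60 and 9.80 in control islets. Its groups overlapped widely, with 5 of 6 SRI-tg10 mice above the control mean and a difference of 0.21 ± 0.16 (SE; limma adjusted p = 0.922). Control replicate 3 was the lowest mouse for both genes.

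The authors' deposited table, whose model is not described, lists 17 of the 18 probes, and none passed there either: 5 of its 26560 probes (0.0188%) did, and the smallest adjusted p of a clock probe was 0.767. That was the second Tef probe (0.44 there), detected on 1 array and left out of testing here. In a fit without the detection filter, this probe gave 0.34 ± 0.10 (SE; limma adjusted p = 0.965). The authors' deposited table gives 0.34 for Dbp, 0.19 for Arntl, 0.09 for Nr1d1, -0.06 for Per1, -0.39 for Cry2 and -0.44 for Nr1d2 on the log2 scale. When the authors' deposited table was fitted as a weighted sum of the arrays, SRI-tg10 replicate 4 received a weight of 0 and control replicate 5 one of -0.04, while the other controls received between -0.15 and -0.20.

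Compared between the title letters, Arntl averaged 6.56 under letter B and 7.06 under letter A, a difference of -0.50 ± 0.22 (SE) that had an unadjusted p of 0.0403 and did not pass in limma (adjusted p = 0.276). None of the 13 probes passed for the letter, against 0.0928% of all probes, and Arntl was the only probe of the 13 with an unadjusted p under 0.05, against 16.8% of all probes. The difference between SRI-tg10 and control mice was 0.85 ± 0.26 for Arntl under letter B and -0.07 ± 0.24 under letter A. For the dimmer Cry2 probe it was -0.71 ± 0.20 under letter B and 0.42 ± 0.22 under letter A. Tested as the difference between the letters, these gave 0.92 ± 0.37 for Arntl and -1.13 ± 0.29 for that Cry2 probe (limma adjusted p = 1 for both). No probe of the 18315 passed that test (0%), and these 2 of the 13 had an unadjusted p under 0.05, against 2.33% of all probes.

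How much the clock genes varied between mice depended for several of them on control replicate 5. The SD of the brightest Per1 probe was 0.59 over 12 mice, larger than for 92.1% of kept probes, and 0.36 over the 11 other mice, larger than for 69.9%. That of Per2 was 0.50 (85.6%) over 12 mice and 0.28 (47.0%) over 11, and that of Nr1d1 0.46 (80.6%) and 0.24 (35.1%). These SDs were smaller by more than 1.5 times without that mouse. Nr1d2 (91.9% over 12 mice and 93.7% over 11), Cry2 (87.5% and 89.0%) and Arntl (85.5% and 82.4%) ranked high either way, and Dbp (61.2% and 70.8%) and Tef (38.6% and 51.7%) lower. The dimmer probes ranked at 96.5% for Per1, 79.7% and 36.2% for Per2, 63.9% for Cry2 and 73.9% for Nr1d1 over 12 mice. The map of deviations shows control replicate 5 low for Per1, Per2, Nr1d1, Arntl and the brighter Cry2 probe, but not for Nr1d2.

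**Figure D2:**
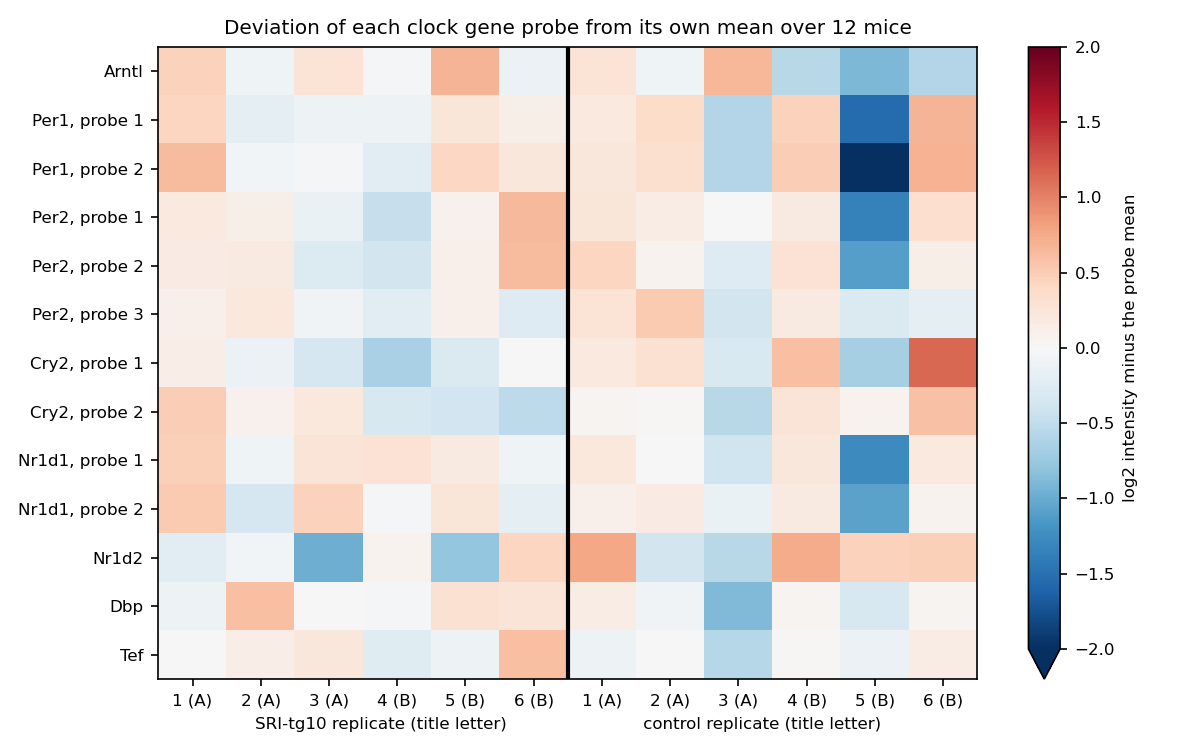
Deviation of each of the 13 kept clock gene probes (rows, by gene and then by brightness) from its own mean over 12 mice (log2 intensity, red above and blue below, colour limited at the lower end), with 6 SRI-tg10 mice left and 6 control mice right of the black line; numbers are replicates and letters the title letters. Control replicate 5 is the darkest blue column for Per1, Nr1d1 and all but the dimmest Per2 probe, and control replicate 3 is low for Per1, Dbp and Tef.

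Pairs of clock genes were correlated across the 12 mice, 28 pairs in all, each with a permutation test of 100000 resamples and Benjamini-Hochberg adjustment over the 28. By Pearson's r, 0 pairs passed and 6 had an unadjusted p under 0.05; by Spearman's rho, 2 passed, Per1 with Cry2 and Per2 with Cry2. The sign was positive for 23 of 28 pairs, and for 20 of 28 without control replicate 5. The points share 1 library each, so a mouse with a deviating library enters every pair, and each relation is given with and without control replicate 5.

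Per1 with Cry2, both of them repressors, had the largest r of the 28 pairs over the 11 mice without that mouse. Over all 12 its r was 0.75 (permutation p = 0.00802, adjusted p = 0.0749) and its rho 0.85 (permutation p = 7e-04, adjusted p = 0.0183). Without control replicate 5, r was 0.78, and without the 2 mice farthest from the Per1 median, 0.85. Within title letter A r was 0.86 and within letter B 0.73, and within SRI-tg10 mice it was 0.59 and within control mice 0.93. Only 0.24% of kept probes had as high an r with Per1 as Cry2 over the 11 mice, and 1.82% over all 12. The dimmer Cry2 probe had an r with Per1 of 0.66 over the 11 mice (1.43% of probes as high) and 0.33 over all 12 (24.9%). Per2 with Cry2 gave r = 0.63 (permutation p = 0.0366, adjusted p = 0.171) and rho 0.84 (permutation p = 0.00131, adjusted p = 0.0183), with r 0.60 without control replicate 5, 0.43 without the 2 farthest mice, 0.86 within letter A and 0.65 within letter B. Of kept probes, 10.9% had as high an r with Per2 as Cry2 over all 12 mice, and 4.67% over the 11. The dimmer Cry2 probe had an r with Per2 of 0.02 over all 12 mice (52.8% of probes as high) and 0.12 over the 11 (46.3%). By rho over the 11 mice, 0 pairs passed.

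Per1 with Nr1d1 had the highest r, 0.88 (permutation p = 0.00229, adjusted p = 0.0641; rho 0.55, permutation p = 0.0705, adjusted p = 0.317). It rested on the low end: r was 0.62 without control replicate 5 and 0.27 without control replicates 3 and 5, the 2 farthest mice. Within letters it was 0.78 (A) and 0.92 (B), and by group 0.47 in SRI-tg10 mice and 0.97 in control mice. Per1 with Per2 behaved alike, with r = 0.83 (permutation p = 0.00651, adjusted p = 0.0749; rho 0.68, permutation p = 0.0182, adjusted p = 0.17), but 0.46 without control replicate 5 and 0.47 without the 2 farthest mice. Within letters r of Per1 with Per2 was 0.65 (A) and 0.89 (B), and by group 0.43 in SRI-tg10 mice and 0.92 in control mice.

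Arntl with Nr1d2, the activator and a gene of its repressor family, was the one pair with an unadjusted p under 0.05 that ran in opposite directions: r = -0.67 (permutation p = 0.0198, adjusted p = 0.139; rho -0.59, permutation p = 0.0471, adjusted p = 0.317). It was as large without control replicate 5 (-0.66) and -0.58 without the 2 farthest mice, but -0.15 within letter A and -0.88 within letter B. Both genes' differences between SRI-tg10 and control mice were themselves opposite in sign, at 0.39 for Arntl and -0.51 for Nr1d2. Of all kept probes, 2.84% had as low an r with Nr1d2 as Arntl. On residuals after the group and letter means, r of Arntl with Nr1d2 was -0.45. Arntl with Cry2 also ran in opposite directions without control replicate 5, with r = -0.65 (permutation p = 0.0265, adjusted p = 0.207), against -0.26 over 12 mice.

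Dbp with Tef, the PAR bZIP pair, gave r = 0.67 (permutation p = 0.0279, adjusted p = 0.156; rho 0.53, permutation p = 0.0791, adjusted p = 0.317), and 0.66 without control replicate 5. It fell away without the 2 mice farthest from the Dbp median, to 0.39, and was 0.83 within letter A and 0.48 within letter B. By group it was 0.26 in SRI-tg10 mice and 0.91 in control mice. Of all kept probes, 0.207% had as high an r with Dbp as Tef. The scatter of pairs shows control replicate 3 alone at the low end for both genes.

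**Figure D3:**
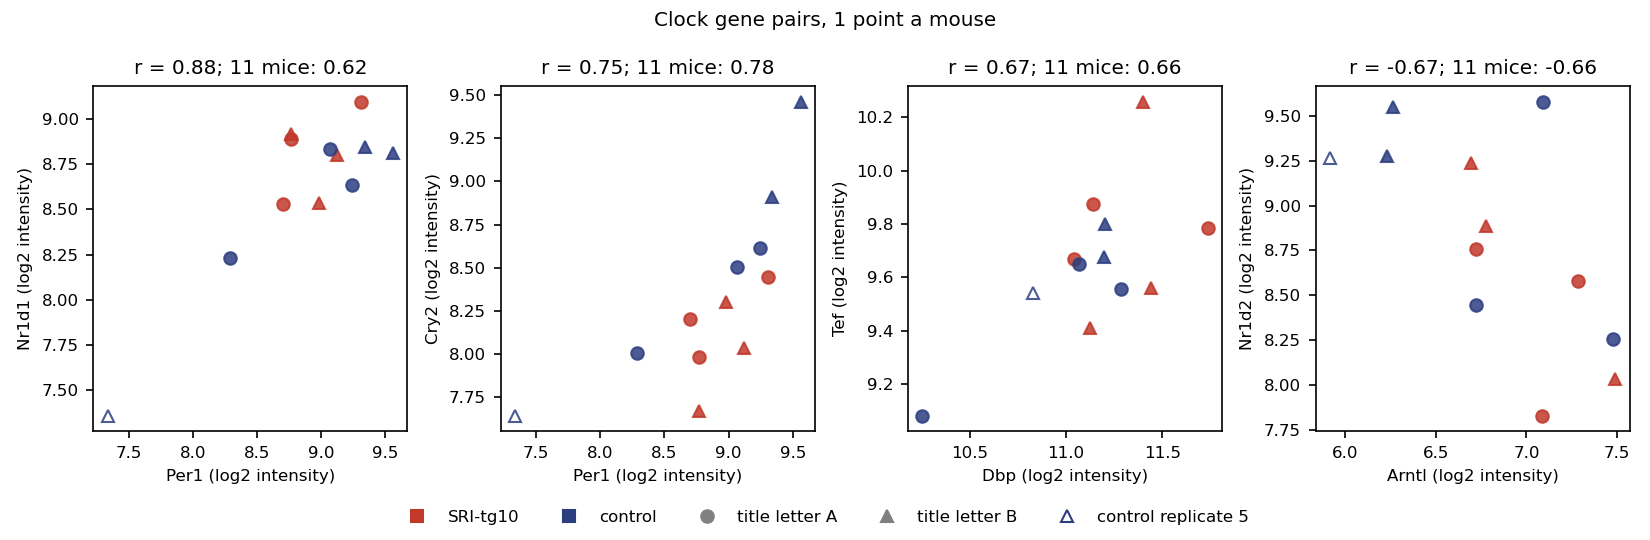
Levels of 4 pairs of clock genes across 12 mice (log2 intensity on both axes, 1 point a mouse; SRI-tg10 red, control blue, control replicate 5 open), with Pearson's r over 12 mice and over the 11 mice without control replicate 5. Per1 and Cry2 keep their relation without that mouse (0.75 and 0.78), and Per1 and Nr1d1 lose part of it (0.88 and 0.62).

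A fit of every kept probe on the Dbp level, with group in the model, called 0 of 18314 probes in limma (0%), 339 with an unadjusted p under 0.05 (1.85%). None of the 12 clock probes tested had an unadjusted p under 0.05 and the slope of Tef was 0.49 ± 0.24 (SE; limma adjusted p = 1). Among 5383 genes with an SD of at least 0.3, those most like Dbp by r over 12 mice were Creb1 (0.74, the cAMP response element binding protein), Bid (0.71, a pro-apoptotic BCL2 relative), Mllt1 (0.71), Rgmb (0.69), Zbtb7c (0.68), Mob3c, Oasl2 and Ccdc136 (0.66 each). The most opposite were Derl3 (-0.86) and Kdelr3 (-0.79), which act in protein degradation and retrieval at the endoplasmic reticulum, and Ttyh1 (-0.82), Jade2 (-0.80), Atp8b2 (-0.79), Ttll11 (-0.78), H13 (-0.77) and Slc39a11 (-0.76). These are the ends of a ranking and none of them passed the fit.

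Taking Per1 in place of Dbp, chosen with the values in view, gave 1 called probe of 18313 (0.00546%), Egr1, an immediate-early transcription factor, with a slope of 0.85 ± 0.10 log2 units per log2 unit of Per1 (SE; limma adjusted p = 0.0381). Of the 11 other clock probes, 0 passed and 5 had an unadjusted p under 0.05, against 15.6% of all probes. They were both probes of Nr1d1 (brighter probe 0.66 ± 0.11), the brighter Cry2 probe (0.71 ± 0.13) and the 2 brighter Per2 probes (0.70 ± 0.15 and 0.61 ± 0.15). Without control replicate 5, Egr1 did not pass (0.77, adjusted p = 0.455), and Ciart (1.47 ± 0.18) and Sdf2l1 (-1.55 ± 0.18), an endoplasmic reticulum chaperone partner named here after its values were seen, did (limma adjusted p = 0.0401 for both; 0.0109% of probes). Over those 11 mice the brighter probes of Cry2 (0.93 ± 0.22) and Nr1d1 (0.47 ± 0.18) and the dimmer Cry2 probe (0.70 ± 0.28) had an unadjusted p under 0.05, 3 of 11 against 7.72% of all probes. These single calls were fragile: Egr1 passed in 4 of 12 fits that left out 1 mouse (without SRI-tg10 replicate 3, 5 or 6 or control replicate 3), Ciart in 1 of 11 that left out a further mouse (control replicate 2) and Sdf2l1 in 1 of 11 (SRI-tg10 replicate 1).

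Ciart lay at 5.92, 6.21 and 6.98 in SRI-tg10 islets and at 5.34, 6.40 and 7.20 in control islets, and did not differ between them past the threshold (-0.06 ± 0.29, SE; limma adjusted p = 0.977). Mice ranked almost alike by Ciart and by Per1: r was 0.75 (permutation p = 0.00351) and rho 0.94 (permutation p = 4e-05) over 12 mice. Without control replicate 5, which had the lowest Per1 level (7.34) but not the lowest Ciart level (5.89, against 5.34 in control replicate 3), r was 0.96 (permutation p = 2e-05), and without the 2 mice farthest from the Per1 median 0.93. By group r was 0.94 in SRI-tg10 mice and 0.76 in control mice, and by letter 0.93 (A) and 0.79 (B), given as descriptions because Ciart was picked on these same mice. Egr1 gave r = 0.96 over 12 mice and 0.87 over 11, and Fos, another immediate-early gene, 0.90 and 0.76. These 3 relations were picked from the fit over all probes, so their own p-values describe them and the adjusted p of that fit is the test. In it Fos did not pass (limma adjusted p = 0.0792 over 12 mice and 0.514 over 11), nor did Ciart over 12 mice (0.142).

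**Figure D4:**
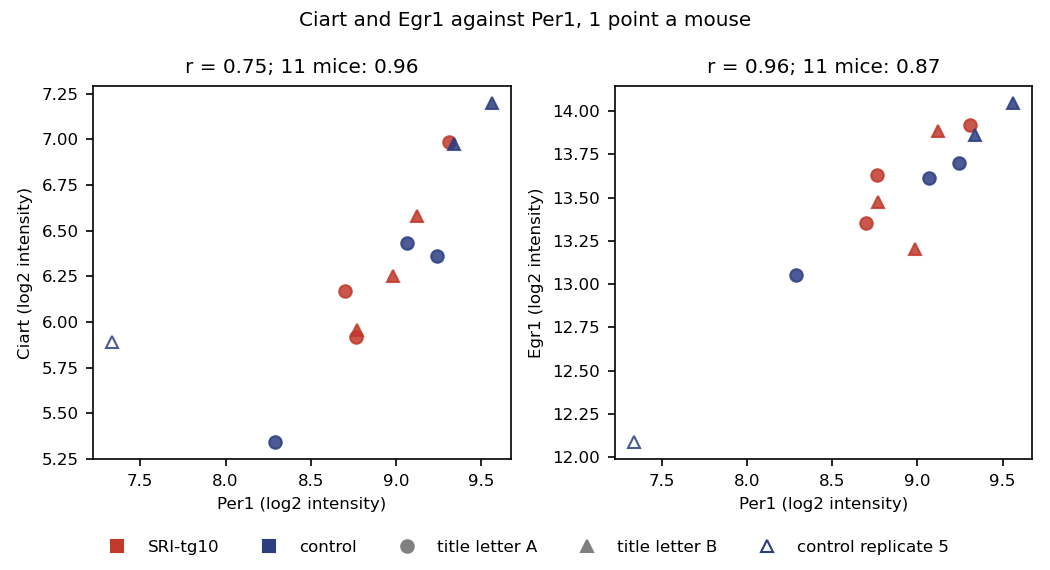
Levels of Ciart (left) and Egr1 (right) against Per1 across 12 mice (log2 intensity on all axes, 1 point a mouse; SRI-tg10 red, control blue, control replicate 5 open). Control replicate 5 lies off the line of the other 11 mice for Ciart (r 0.75 over 12 mice and 0.96 over 11) and on it for Egr1 (0.96 and 0.87).

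The slopes on Per2 and Nr1d1 turned on single mice. Taking Per2 called 669 probes (3.65%), Per1 (0.99 ± 0.21, SE; limma adjusted p = 0.0269) and Cry2 (0.75 ± 0.19; limma adjusted p = 0.0499) among them, and 0 probes without control replicate 5; with another mouse left out it called between 232 and 1325. Taking Nr1d1 called 22 probes (0.12%), which included both Per1 probes (brighter probe 1.28 ± 0.19; limma adjusted p = 0.0376), Fos, Egr1 and Dusp1. With 1 mouse left out, the Nr1d1 fit called 155 probes without control replicate 3, 0 without control replicate 2, 4, 5 or 6 or SRI-tg10 replicate 1 or 2, and between 3 and 39 otherwise. Leaving out 1 mouse at a time, the Per1 fit called 480 probes (2.62%) and 3 clock genes without control replicate 3, and between 0 and 6 probes otherwise. Slopes on Arntl, Cry2, Nr1d2 and Tef called 0 probes in limma with or without control replicate 5, and between 404 and 2730 probes had an unadjusted p under 0.05.

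No gene of the 3 other clock lists passed the threshold between the groups in limma, and 0 had an unadjusted p under 0.05, while 2 of 12647 genes passed, 511 had an unadjusted p under 0.05 and 50.9% of all genes were higher in SRI-tg10 islets. Of 11 other core clock genes, 6 were measured (3 higher and 3 lower in SRI-tg10 islets, 0 passed). Among them, Clock, the partner of ARNTL, was at -0.37 ± 0.17 (SE), Rora at -0.27 ± 0.15, Nfil3, the D-box repressor, at 0.11 ± 0.27, and Bhlhe40, an E-box repressor, at 0.25 ± 0.29. Of 14 clock kinases, ubiquitin ligases and partners, 12 were measured (7 higher, 5 lower, 0 passed), and of 10 clock-controlled output genes 9 (2 higher, 7 lower, 0 passed). The median difference was 0.03, 0.04 and -0.12 in these 3 lists, against 0.0049 over all genes.

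Lists of genes that respond to signals able to reach Per1 were set beside it by their r across mice. Over the 11 mice without control replicate 5, all 10 glucocorticoid-responsive genes had a positive r with Per1, with a median of 0.67, against 50.3% positive and a median of 0.0035 over all genes. Some lists of cell type markers went up with Per1 too. Over the same 11 mice all 7 macrophage and dendritic cell markers measured had a positive r (median 0.29). So did all 5 lymphocyte markers (0.20) and all 4 delta cell markers (0.25). The 6 stellate cell and fibroblast markers had a median of 0.52 (4 of 6 positive), or 0.62 over 12 mice (6 of 6). Alpha cell markers had a median of 0.42 (3 of 4 positive), duct markers 0.30 (3 of 5) and endothelial markers 0.04 (4 of 5). Over 12 mice these 3 medians were 0.22, -0.04 and 0.53. Other lists did not go up over the 11 mice. A positive r was held by 0 of 3 erythroid markers (median -0.33) and 3 of 10 beta cell markers (-0.14). It was held by 3 of 10 acinar markers (-0.04) and 1 of 3 PP cell markers (-0.08). The part of cell type markers in the relation of the glucocorticoid-responsive genes with Per1 was not tested. Errfi1 (0.86), Tsc22d3 (0.79) and Fkbp5 (0.78), named after their values were seen, were among the highest of the glucocorticoid-responsive genes. Over 12 mice 9 of these 10 genes were positive, with a median of 0.43, against 52.9% and 0.036 over all genes. The immediate-early genes had a median of 0.62 over 11 mice (7 of 10 positive) and 0.74 over 12 (8 of 10), and the temperature-responsive genes 0.46 (8 of 9) and 0.50 (6 of 9). The other core clock genes had 0.24 (5 of 6) and 0.10 (3 of 6), and the clock genes themselves 0.43 (6 of 7) and 0.44 (7 of 7). Genes of a list share mice and libraries, and no test was made of a list.

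**Figure D5:**
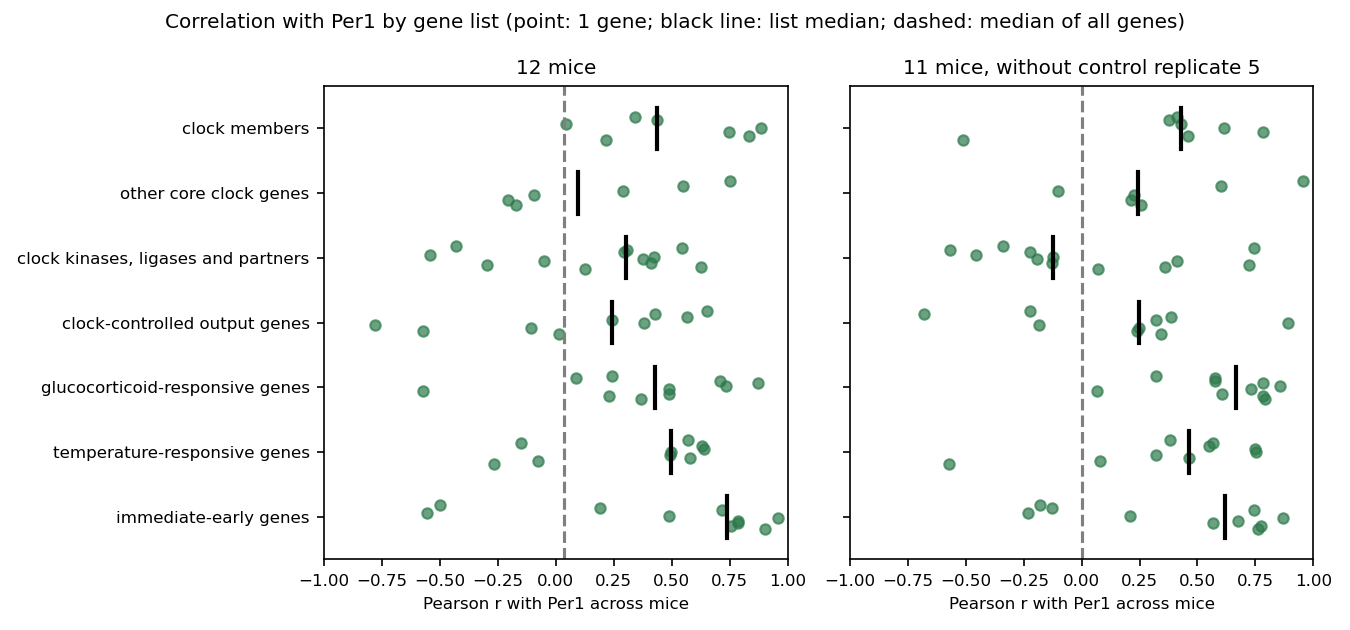
Pearson's r with Per1 across mice for each measured gene of 7 lists (1 point a gene, black line the list's median, dashed line the median of all genes), over 12 mice (left) and over the 11 mice without control replicate 5 (right). The 10 glucocorticoid-responsive genes all lie above 0 on the right, with a median of 0.67.

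With Dbp the same lists gave medians of 0.16 (glucocorticoid-responsive), 0.17 (temperature-responsive and immediate-early) and -0.04 (other core clock genes) over 12 mice, against 0.031 over all genes. The genes with the largest absolute r with Dbp were Hspa1a (0.64), Dnajb1 (0.52) and Hspa1b (0.46) of the temperature-responsive list, Mt1 (0.55), Tsc22d3 (0.34) and Zbtb16 (-0.29) of the glucocorticoid list, and Bhlhe40 (0.53) and Ciart (0.48) of the core clock list. Among immediate-early genes they were Crem (-0.49), Junb (0.45) and Egr1 (0.38), and among output genes Usp2 (-0.49), Lonrf3 (-0.39) and Pdk4 (0.24). None of these passed the fit on Dbp.

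Some lists of genes stood apart in control replicate 5, the mouse on which several relations turned. Scored as the mean deviation of a list's log2 levels, its erythroid markers (3 of 4 measured) were at 1.87, with the other mice between -1.88 and 1.34, and its stellate cell and fibroblast markers (6 of 6 measured) were at -0.78, with the others between -0.45 and 0.76. Of the latter, Col1a1 (4.61), Col1a2 (4.53) and Col3a1 (5.41), detected on 7, 10 and 11 arrays, lay below all other mice. Pdgfrb (5.21), Lum (6.73) and Dcn (10.97) lay within the other mice. Its PP cell markers (3 of 3 measured) were at -0.56, below all others (-0.17 to 0.36). Ppy (13.61, others from 13.65) and Pyy (14.22, others from 14.37) were the lowest of all mice, and Sertm1 (5.63) lay within them. Its duct markers (5 of 6 measured), at 0.46, were barely above the highest of the others (-0.55 to 0.45). Of these duct markers, only Muc1, at 9.44, was above all other mice (7.21 to 9.11). Krt19 (7.63), Sox9 (7.81), Spp1 (9.91) and Krt7 (10.18) lay within the other mice. Its beta cell markers (10 of 10 measured), at -0.06, lay within the others (-0.24 to 0.20), as did its acinar markers (10 of 10 measured), at 0.15 (-0.40 to 0.26). Its immediate-early genes (10 of 12 measured) were at -0.80, below all others (-0.48 to 0.48). Of these, Fos, Fosb, Jun, Junb, Egr1 and Egr2 lay below all other mice, Ier2 and Crem above all, and Atf3 and Btg2 within them. The part of any of these lists in the low Per1, Per2 and Nr1d1 levels of this mouse was not tested. The labels do not give each mouse's collection time, so a shift of the clock and a difference in collection time cannot be told apart.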

How the data were processed

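Per the labels' protocols, total RNA of isolated islets was extracted with Trizol and labelled with biotin as cRNA and put on Illumina bead arrays; GenomeStudio is named, without a version, in the submitters' processing notes. The deposited intensity table holds mean bead intensity on a linear scale, neither background-subtracted nor normalized from its values, and, per the file headers, each probe's detection p-value on each array. A second table of the authors holds log2 fold changes, t scores and p-values, per the file headers; its fold changes run as SRI-tg10 minus control, judged from the intensities. The deposited series values, on a log2 scale, were not used, because 10 of their 12 columns correlated best with the intensity column of another array.

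Intensities were processed with neqc in limma 3.58.1 (R 4.3.3; offset 16), and a probe was kept where its detection p was under 0.05 on 6 or more arrays. Fits used lmFit and eBayes with Benjamini-Hochberg adjustment over all kept probes (adjusted p under 0.05). They compared the groups, the title letters, the group difference between letters, and slopes on a gene's level with group in the model. Each gene was represented by its brightest kept probe in correlations, which used NumPy 2.4.6 under Python 3.11.15. The number of arrays limits the precision. The fits were tested on simulated arrays with known changes. The genes named are the 10 members, members of 6 pathway lists that passed a fit or had the 3 largest absolute r with Dbp, and up to 8 genes most like and most opposite to Dbp. Clock, Nfil3, Sdf2l1, Errfi1 and Fkbp5 were named outside this rule, after their values were seen. So were the duct, stellate cell, fibroblast and PP cell markers and the immediate-early genes of control replicate 5. The members and all lists were chosen with earlier results of these data known. Alternatives were quantile normalization, other detection filters, array weights, the letter as a block, no group term, and leaving out each array.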

Additional observations from a re-analysis of the deposited data

Results flagged for a closer look

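In 26 groups of 6 mice (13 probes, both groups) the lowest and highest values were compared with the spread of the rest, and 3 stood apart, where chance alone sets apart about 1 in 20 such groups. Control replicate 5 was at 8.23 for the brightest Per2 probe, with the next control at 9.56 and the highest at 9.91. The same mouse was at 6.16 for the dimmer Nr1d1 probe, with the next control at 7.10 and the highest at 7.41. Control replicate 3 was at 9.08 for Tef, with the next control at 9.54 and the highest at 9.80. Both of these mice were also the lowest controls for Per1.

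The dimmer Cry2 probe differed between title letters in its group difference, by -1.13 ± 0.29 (SE; -0.71 under letter B, 0.42 under letter A; unadjusted p = 0.0025 in limma). After adjustment over all probes it did not pass (limma adjusted p = 1), and the brighter Cry2 probe gave -0.51 ± 0.54.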

How the results depend on the processing

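The counts of clock probes past the threshold stayed at 0 for the group, the letter and the difference between letters under every alternative run. Of the differences between SRI-tg10 and control mice, those of Arntl, Cry2, Nr1d1, Nr1d2, Dbp and Tef kept their sign throughout. That of Per1 turned to -0.078 with array weights, to -0.16 without control replicate 5 and to -0.12 without this array and SRI-tg10 replicate 4 together, and that of Per2 to -0.10 without control replicate 5; with 1 array left out at a time they ranged from -0.16 to 0.29 and from -0.10 to 0.26. By Pearson's r, 4 pairs passed on residuals after the group and letter means, and between 0 and 2 with 1 array left out: 2 without control replicate 1 and 1 each without SRI-tg10 replicates 3 and 4. Slopes on Per2 gave 2 clock genes past the threshold and those on Nr1d1 gave 1, against 0 on Dbp, and both fell to 0 without control replicate 5. These slopes, and those on Per1, were chosen after seeing the data.

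The slope of Ciart on Per1 over 11 mice kept its sign under 18 settings (0.73 to 1.63) but passed under only 4, and under 1 of 11 that left out a further mouse (adjusted p from 0.0404 to 1). That of Sdf2l1 passed under 4 of 18 (-1.84 to -1.34), and that of Egr1 over 12 mice under 8 of 19 (0.77 to 1.15), 4 of the 12 that left out 1 mouse among them. The cause was not tested. The slope on Per3 and the fit on the deposited series values were not run, since Per3 has no kept probe and those columns do not follow the labels. No paired analysis was possible because the labels number the mice singly and replicate numbers here only follow their order. Arrays left out singly in fits of letters leave 2 mice in a cell, assumed to vary like the others.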
